A study of Homo sapiens with 7 samples.

Results

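The enzymes that add methyl groups to histone lysines and those that take them off were followed through 4 peak lists, RUNX2 and H3K27ac in each of 2 T-cell acute lymphoblastic leukemia (T-ALL) lines. Members were the protein-coding RefSeq genes of GRCh38.p14 on chromosomes 1 to 22 and X whose symbol is KDM, KMT or SETD followed by a digit, together with EZH1, EZH2, NSD1, NSD2 and NSD3, and KMT2A was left out by the rule. The rule used names and no measured value, and it found 40 of 19974 protein-coding genes. KARPAS-45 and PER-117 are established human T-ALL lines, with no treatment named in the labels and with fetal bovine serum at 20% for KARPAS-45 and at 10% for PER-117. Cells of both were fixed in 1.1% formaldehyde for 10 min, their chromatin was broken into fragments of 200 to 300 bp, and 10 ug of an antibody to RUNX2 or to H3K27ac was used per precipitation. There was 1 library per line and antibody, so no value has a replicate and no test between the lines was possible. The study asks where RUNX2 binds and where H3K27 is acetylated in T-ALL cells.

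Histone lysine methylation is written by methyltransferases, most of which carry a SET domain, and erased by demethylases of the amine oxidase (KDM1) and Jumonji families. Methylation of H3K4 is known from active promoters and enhancers, of H3K36 from transcribed gene bodies, of H3K27 from Polycomb-silenced genes, and of H3K9 and H4K20 from compact chromatin. Several of these genes, among them EZH2, KDM6A and SETD2, are known targets of mutation in T-ALL. RUNX2 is a DNA-binding factor of the RUNX family best known from bone formation, and H3K27ac marks active promoters and enhancers.

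RUNX2 peaks numbered 42911 in KARPAS-45 cells and 21027 in PER-117 cells, and H3K27ac regions 63265, covering 167 Mb, and 53263, covering 76.2 Mb. Among markers of the labelled cell type, 8 of 8 T-lineage genes carried H3K27ac within 1 kb of a gene end in KARPAS-45 and 7 of 8 in PER-117, where CD5 lacked it. Over all protein-coding genes the shares were 61.0% in KARPAS-45 and 55.5% in PER-117. None of 4 myeloid genes was acetylated at an end in either line. COL1A1, EPCAM and KRT18, among 4 non-blood genes, were acetylated there in KARPAS-45, against 0 of 4 in PER-117. The part of such signal in the results on the enzymes was not tested.

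RUNX2 lay at the ends of most of these genes in both lines. A gene end was counted as bound when a peak overlapped, by at least 1 bp, the 1 kb on either side of the first or last base of the gene. In KARPAS-45 this held for 31 of 40 enzymes (77.5%), beside 48.3% of all protein-coding genes. In PER-117 it held for 24 of 40 (60.0%), beside 32.5% of all genes. There were 23 enzymes bound in both lines (57.5%, beside 29.2%), and at 20 of them the peaks of the lines overlapped. NSD3, SETD2 and SETD4 were the other 3, with separate peaks in each line. In PER-117 their summits lay just outside the window, 1087 and 1229 bp from the gene end for SETD2, 1135 bp for SETD4 and 1026 bp for NSD3. With the summit required in the window, 21 enzymes were bound in PER-117 and 20 in both lines. That rule was not counted over all genes. Some gene-end peaks also lay within 1 kb of an end of another protein-coding gene and cannot be assigned to 1 gene. This held at 9 of the 31 bound enzymes in KARPAS-45, beside 33.9% of all bound genes, and at 8 of the 24 in PER-117, beside 36.8%. In KARPAS-45 these were KDM1B, KDM4D, KDM5A, KDM5C, KDM6B, KMT2B, KMT2D, NSD1 and NSD3.

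H3K27ac was at a gene end of the same 35 enzymes in both lines (87.5%), beside 61.0% of all genes in KARPAS-45, 55.5% in PER-117 and 51.9% in both. The 5 without it in either line (12.5%, beside 35.3%) were KDM3A, KDM4C, KDM4E, KDM4F and SETD3. The KARPAS-45 list reaches weaker regions, down to a fold enrichment of 1.0 and a −log10 q of 0.431, against 1.63 and 1.01 in PER-117. With a −log10 q of 2 or more, 27 enzymes kept gene-end H3K27ac in KARPAS-45 and 35 in PER-117. That setting was not counted over all genes. Of the 9653 genes bound in KARPAS-45, 9231 were acetylated at an end, so the counts were also read among acetylated genes. There RUNX2 was at 30 of 35 enzymes in KARPAS-45 (85.7%), beside 75.7% of all acetylated genes, and at 24 of 35 in PER-117 (68.6%), beside 57.1%. Length was set apart in the same way. Of the 20 enzymes between 25.9 and 110 kb long, the middle 50% of the members, 17 were bound in KARPAS-45, beside 56.3% of all genes that long, and 14 in PER-117, beside 37.6%. Keeping peaks with a −log10 q of 10 or more left 20 bound enzymes in KARPAS-45, beside 29.8% of all genes, and 10 in PER-117, beside 17.2%.

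**Figure D1:**
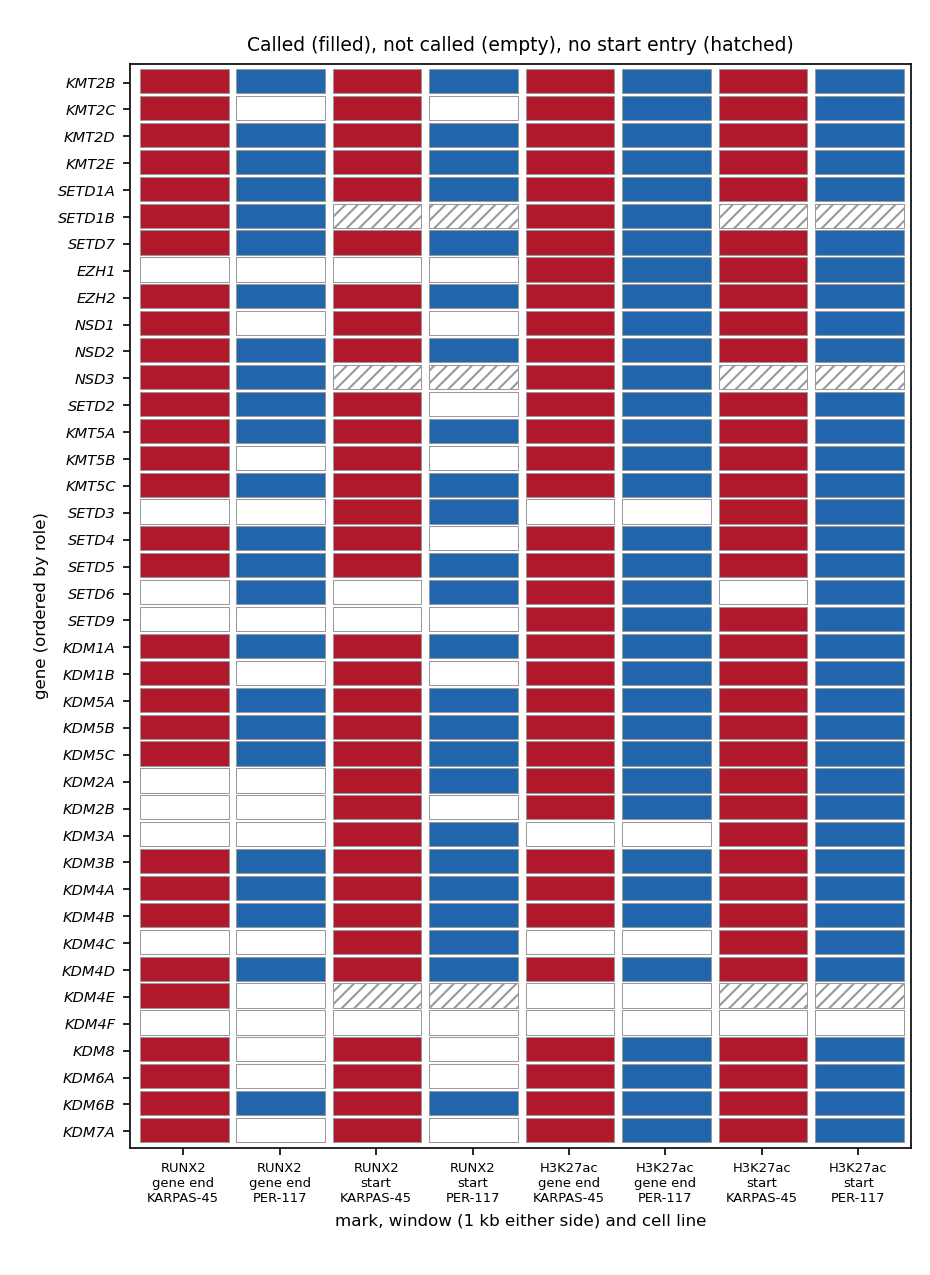
Presence of a called RUNX2 peak or H3K27ac region for each of the 40 enzymes (rows, ordered by role), within 1 kb of either gene end or of an annotated start, in KARPAS-45 (red) and PER-117 (blue). Empty cells are not called and hatched cells have no start entry. The H3K27ac columns are filled for 35 enzymes at a gene end in both lines, while the RUNX2 columns are filled for 31 in KARPAS-45 cells and 24 in PER-117 cells.

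Either end of a gene includes its 3′ end, so the same was asked at annotated starts, which the RefSeq promoter table gave for 37 enzymes with 54 entries. KDM4E, NSD3 and SETD1B had no entry. Within 1 kb of a start, RUNX2 was called at 33 of 37 enzymes in KARPAS-45 (89.2%), beside 50.5% of the 15812 genes with an entry, and at 24 of 37 in PER-117 (64.9%), beside 34.4%. All 23 enzymes bound at a start in both lines (62.2%, beside 30.9%) had overlapping peaks there. H3K27ac was at a start of 35 of 37 enzymes in KARPAS-45 (beside 61.6%) and of 36 of 37 in PER-117 (beside 57.1%). KDM2A, KDM2B, KDM3A, KDM4C and SETD3 had RUNX2 at an annotated start that lies inside the gene span, and at neither end. Among genes with an acetylated start, 33 of 35 enzymes were bound in KARPAS-45, beside 79.3%, and 24 of 36 in PER-117, beside 59.1%.

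RUNX2 summits, the position of highest signal in a peak, stood mostly on the upstream side of these starts. In KARPAS-45, 32 of 44 summits within 1 kb of a start were upstream (72.7%, beside 63.4% over all genes), and 22 lay in the first 250 bases (50%, beside 49.0%). In PER-117, 21 of 30 were upstream (70.0%, beside 53.5%) and 10 lay in the first 250 bases (33.3%, beside 33.5%). The share in the first 250 bases was thus close to that of all genes in each line.

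The 250 bases before the start are shown for the enzymes with the strongest RUNX2 summits in the 300-base promoter window, 6 with a summit in both lines and 2 with a summit there in KARPAS-45 alone, to show what DNA lies under these summits. The 6 were ranked by the lower of both lines' fold enrichments. Sequences are from RefSeq, GRCh38.p14, read 5′ to 3′ along the gene. Capitals mark TGTGGT, the core of the RUNX consensus, the related TGCGGT, and their reverse complements ACCACA and ACCGCA. The 2 letter strings cannot start at the same base, and each was searched on both strands. The 4 promoters with capitals come first.
KDM3B, chr5:138352435-138352684, plus strand: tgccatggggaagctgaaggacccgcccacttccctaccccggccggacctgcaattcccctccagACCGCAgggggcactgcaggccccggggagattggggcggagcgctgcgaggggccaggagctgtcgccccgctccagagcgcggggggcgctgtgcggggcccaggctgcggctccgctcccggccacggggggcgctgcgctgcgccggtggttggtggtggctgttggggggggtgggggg
KDM4C, chr9:6757723-6757972, plus strand: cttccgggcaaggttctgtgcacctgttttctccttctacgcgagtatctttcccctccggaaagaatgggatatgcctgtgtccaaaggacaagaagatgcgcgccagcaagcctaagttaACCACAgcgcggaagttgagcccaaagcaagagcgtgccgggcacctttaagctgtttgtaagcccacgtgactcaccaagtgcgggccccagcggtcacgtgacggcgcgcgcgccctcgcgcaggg
SETD5, chr3:9397365-9397614, plus strand: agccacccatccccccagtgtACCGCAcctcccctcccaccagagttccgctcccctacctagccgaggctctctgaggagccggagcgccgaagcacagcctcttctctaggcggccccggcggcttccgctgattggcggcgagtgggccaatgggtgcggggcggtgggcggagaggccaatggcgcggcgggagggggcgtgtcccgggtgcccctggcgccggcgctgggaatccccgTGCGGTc
KDM5C, chrX:53225208-53225457, minus strand: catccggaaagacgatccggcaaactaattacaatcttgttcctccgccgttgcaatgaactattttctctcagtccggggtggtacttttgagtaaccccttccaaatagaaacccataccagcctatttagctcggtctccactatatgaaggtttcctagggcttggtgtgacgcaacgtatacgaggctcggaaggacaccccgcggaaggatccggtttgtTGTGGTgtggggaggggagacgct
KMT2D, chr12:49060795-49061044, minus strand: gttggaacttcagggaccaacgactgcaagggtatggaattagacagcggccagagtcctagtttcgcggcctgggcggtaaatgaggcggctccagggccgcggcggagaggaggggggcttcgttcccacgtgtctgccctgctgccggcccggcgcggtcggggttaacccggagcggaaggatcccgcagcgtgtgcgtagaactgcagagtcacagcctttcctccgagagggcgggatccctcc
KMT2E, chr7:105013955-105014204, plus strand: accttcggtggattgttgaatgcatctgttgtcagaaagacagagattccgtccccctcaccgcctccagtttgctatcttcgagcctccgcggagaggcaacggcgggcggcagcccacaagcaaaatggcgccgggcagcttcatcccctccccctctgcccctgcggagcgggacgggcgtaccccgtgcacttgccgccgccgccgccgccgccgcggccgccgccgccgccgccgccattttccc
KDM5B, chr1:202808422-202808671, minus strand: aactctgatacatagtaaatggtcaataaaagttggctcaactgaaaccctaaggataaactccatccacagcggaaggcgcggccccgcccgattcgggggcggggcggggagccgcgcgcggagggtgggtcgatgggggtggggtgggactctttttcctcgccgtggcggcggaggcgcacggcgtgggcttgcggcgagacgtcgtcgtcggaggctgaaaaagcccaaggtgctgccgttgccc
KDM2A, chr11:67239764-67240013, plus strand: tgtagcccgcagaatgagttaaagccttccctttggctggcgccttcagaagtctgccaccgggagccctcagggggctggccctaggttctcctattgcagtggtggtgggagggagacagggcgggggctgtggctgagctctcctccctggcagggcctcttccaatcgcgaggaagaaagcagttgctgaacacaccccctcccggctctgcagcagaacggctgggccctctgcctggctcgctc

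In KDM3B the capitals began 184 bases before the start, between the RUNX2 summits of PER-117, 195 bases before it, and of KARPAS-45, 152 bases before it. In KDM4C they began 128 bases before the start, with summits 87 bases upstream in KARPAS-45 and 197 in PER-117. SETD5 held 2 matches, 229 and 7 bases upstream, around a KARPAS-45 summit 42 bases upstream. In KDM5C the match began 24 bases before the start, and the summits were 61 bases upstream in KARPAS-45 and 66 bases downstream in PER-117. The promoters of KMT2D, KMT2E, KDM5B and KDM2A held none of these letters, although summits of both lines fell inside each window. Across all enzymes, 10 of 37 (27%) had a match in the 250 bases, beside 19.9% of the 15812 genes. The core TGTGGT or its reverse complement was in 3 of the 37 (8.11%, beside 12.2%). The related TGCGGT or its reverse complement was in 7 (18.9%, beside 8.87%). Of the 24 promoter entries with a RUNX2 summit in the window of either line 7 had a match, and of the 30 without one 3 had. The 30 came from 18 enzymes, 3 of them with a match, so some enzymes count there with several overlapping windows. Over all protein-coding entries 15.6% had a match, and the split by summit was not made for them. A match is a description of letters and not evidence of a site.

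**Figure D2:**
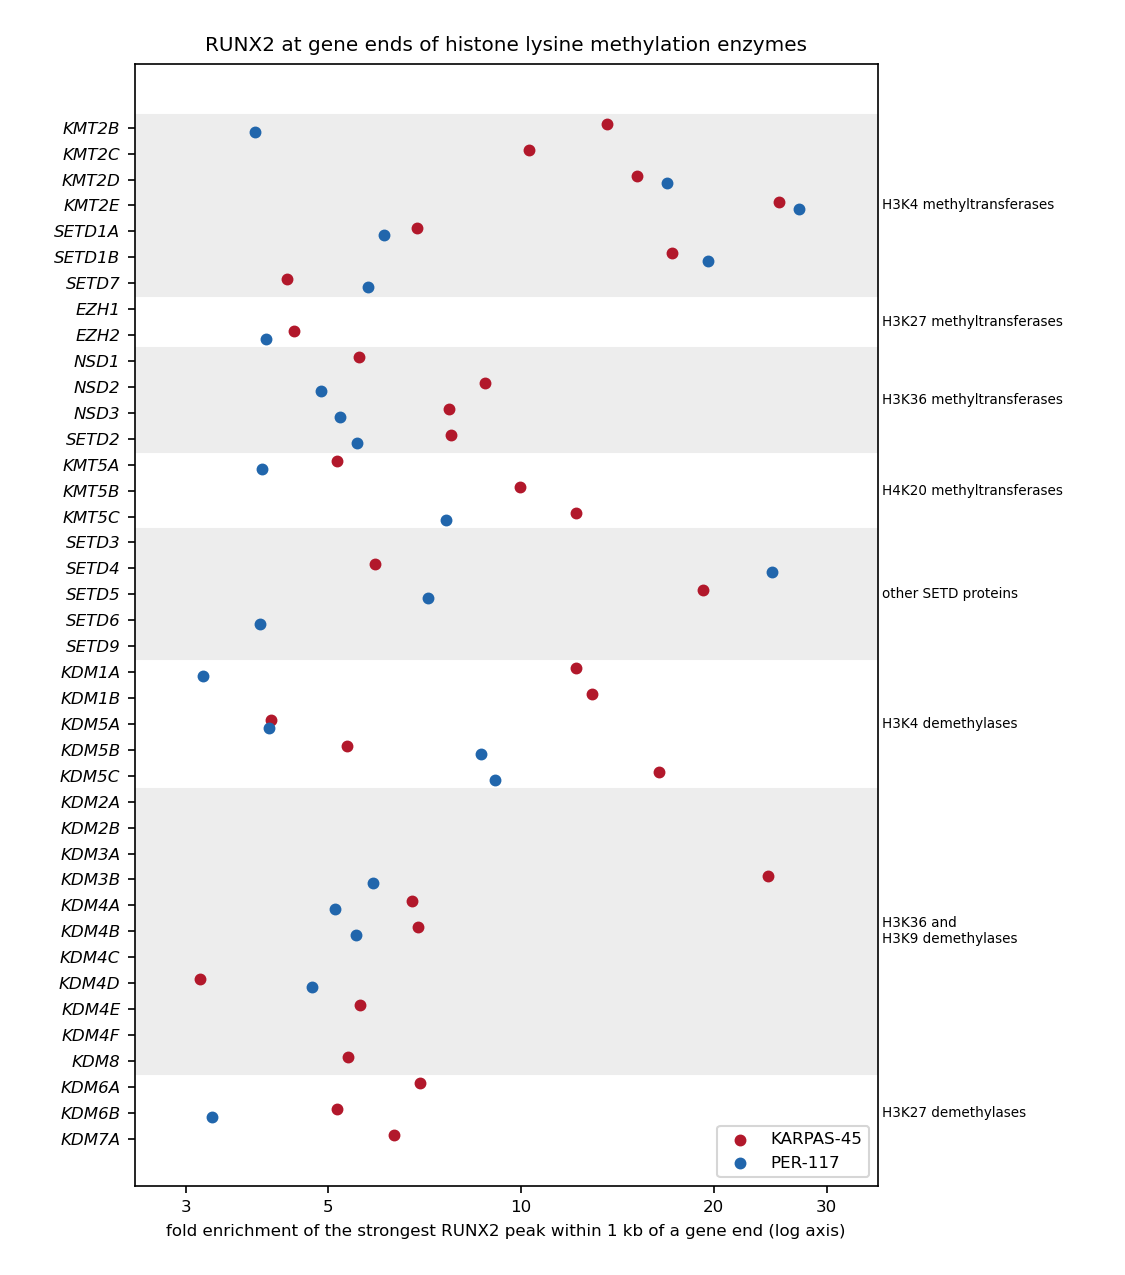
Fold enrichment, as the authors gave it, of the strongest RUNX2 peak within 1 kb of a gene end (horizontal log axis) for each enzyme (rows, shaded by role), in KARPAS-45 (red) and PER-117 (blue), with no point where no peak was called. The points run from 3.16 to 27.2, and KMT2E has the highest value in both lines, 25.3 and 27.2.

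Each fold enrichment quoted for RUNX2 is the value the authors gave a peak, and it ranks peaks within 1 list. At gene ends the values were ordinary for these lists: the strongest peak per bound enzyme had a median of 6.97 in KARPAS-45 (3.16 to 25.3, 31 genes), beside 7.16 over all 9653 bound genes, and 5.53 in PER-117 (3.19 to 27.2, 24 genes), beside 5.8 over all 6494.

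The H3K4 methyltransferases were bound throughout in KARPAS-45, 7 of 7 at a gene end (beside 48.3% of all genes). In PER-117 6 of 7 were bound (beside 32.5%). KMT2E, a reader-like member of the KMT2 family with little known catalytic activity, had the strongest gene-end peak of all enzymes, with fold enrichments of 25.3 in KARPAS-45 cells and 27.2 in PER-117 cells. Its peak (chromosome 7, 105012419 to 105013248 in KARPAS-45, hg38) reached into the 1 kb window from a summit 1493 bp upstream of the start, close to an end of KMT2E-AS1. It stood in the top 4.05% of its list and the top 1.02% of the PER-117 list. A weaker peak sat at the start itself, at 7.46 and 5.63. SETD1B, the catalytic subunit of a COMPASS complex, reached 17.2 at a gene end in KARPAS-45 cells and 19.6 in PER-117 cells. Its paralogue SETD1A, the other catalytic subunit of this kind, had 6.88 and 6.11.

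KMT2D, which monomethylates H3K4 at enhancers, had RUNX2 at both of its ends. At the start the fold enrichment was 6.72 in KARPAS-45 cells and 13.1 in PER-117 cells. At the far end it was 15.2 and 16.9, in a peak that also lies within 1 kb of an end of PRKAG1, so it cannot be assigned to KMT2D alone. KMT2B, which trimethylates H3K4 at CpG-rich promoters, had 13.6 in KARPAS-45 cells and 3.85 in PER-117 cells, again within 1 kb of an end of a neighbour, ZBTB32. SETD7, a monomethyltransferase of H3K4 and of other proteins, had 4.32 and 5.77. KMT2C, the close relative of KMT2D, was bound in KARPAS-45, at 10.3 and 878 bp upstream of the start, and had no RUNX2 peak anywhere in its 301 kb span plus 10 kb in PER-117, although its start was acetylated in both lines.

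The pair of H3K27 methyltransferases, the catalytic subunits of Polycomb repressive complex 2, differed from each other. EZH2, the subunit of dividing cells, had RUNX2 just upstream of its start in both lines. Overlapping peaks there had 4.42 in KARPAS-45 cells and 3.66 in PER-117 cells, and a further PER-117 peak of 4.0 overlapped none in KARPAS-45. These values ranked low, at 79.1%, 88.4% and 80.8% of their lists counted from the strongest peak. The strongest PER-117 peak of EZH2 was inside the gene, at 13.0 and 44391 bp from the start, over a KARPAS-45 peak of 5.83, and both summits were acetylated in both lines. EZH1, the subunit known from resting cells, had no RUNX2 at a gene end or start in either line, although both were acetylated. A peak shared by both lines stood inside EZH1 (chromosome 17, 42706825 to 42707078 in KARPAS-45), at 9.61 in KARPAS-45 cells and 15 in PER-117 cells, and its summit lay in no H3K27ac region of either line.

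In KARPAS-45 all 4 H3K36 methyltransferases had RUNX2 at a gene end (beside 48.3%), and in PER-117 3 of 4 (beside 32.5%). NSD2, which dimethylates H3K36, had a peak upstream of its start, at 8.78 in KARPAS-45 cells and 4.88 in PER-117 cells. A stronger shared peak lay 27998 bp inside the gene, at 18.5 and 8.89, acetylated in KARPAS-45 and not in PER-117. NSD1, of the same family, had 7.97 at a start in KARPAS-45 and 5.59 at its far end, near an end of RAB24, and no gene-end or start peak in PER-117. NSD3 had 7.73 and 5.22, in peaks that did not overlap, within 1 kb of an end of LETM2.

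SETD2, the enzyme that trimethylates H3K36, had gene-end peaks in different places in the lines. In KARPAS-45 the peak was at the start, at 7.79. In PER-117 the stronger of 2 peaks reached into the window at the far end from its summit 1229 bp away, at 5.54 (chromosome 3, 47016737 to 47017797). None of its 6 KARPAS-45 and 2 PER-117 peaks overlapped. The strongest of them, at 42.2 and in the top 0.774% of the KARPAS-45 list, lay inside the gene (chromosome 3, 47057287 to 47057740), 106562 bp from the start, and in no H3K27ac region of either line.

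Of the H4K20 methyltransferases, 3 of 3 were bound in KARPAS-45 and 2 of 3 in PER-117. KMT5C, which with KMT5B adds the further methyl groups to H4K20, had 12.2 in KARPAS-45 cells and 7.64 in PER-117 cells. KMT5A, which adds the initial one, had 5.16 and 3.95. KMT5B had 9.98 at its start in KARPAS-45 and no peak in its span plus 10 kb in PER-117, with H3K27ac at the start in both lines.

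The other SETD proteins are a mixed group, with gene-end RUNX2 at 2 of 5 in KARPAS-45 (beside 48.3%) and at 3 of 5 in PER-117 (beside 32.5%). SETD5, a chromatin regulator, had 19.2 in KARPAS-45 cells and 7.15 in PER-117 cells. SETD4 was bound at its start in KARPAS-45, at 5.93, and near its far end in PER-117, at 24.6 (chromosome 21, 36035074 to 36035899), in the top 1.54% of that list. SETD6, known to methylate the NF-kB subunit RELA, was the 1 enzyme whose gene-end RUNX2 was called in PER-117 but missing from the KARPAS-45 list, at 3.92 and within 1 kb of an end of NDRG4. SETD3, known as an actin histidine methyltransferase, had RUNX2 at its annotated start in both lines, at 8.99 and 3.55, in KARPAS-45 close to an end of CCNK. SETD9 had no RUNX2 in its span plus 10 kb in either line, with H3K27ac at a gene end in both.

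Gene-end RUNX2 was called at all 5 H3K4 demethylases in KARPAS-45 (beside 48.3%) and at 4 of 5 in PER-117 (beside 32.5%). KDM5C, an eraser of H3K4me3 on the X chromosome, had 16.4 in KARPAS-45 cells and 9.1 in PER-117 cells, near an end of IQSEC2. Its paralogue KDM5B had 8.66 in PER-117 and 5.35 in KARPAS-45. KDM5A had 4.07 and 4.05, at an end it shares with CCDC77. KDM1A, the amine oxidase LSD1, had 12.2 in KARPAS-45 cells and 3.19 in PER-117 cells, a value that ranks at 95.2% of the PER-117 list counted from the strongest peak. KDM1B, the related LSD2, had 12.9 at its start in KARPAS-45, near an end of TPMT, and no start peak in PER-117. A PER-117 peak of 12 lay 2589 bp upstream of KDM1B, overlapping a peak in KARPAS-45 and with its summit outside H3K27ac in both lines.

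The demethylases of H3K36 and H3K9 were bound at gene ends in 6 of 11 cases in KARPAS-45 (beside 48.3%) and 4 of 11 in PER-117 (beside 32.5%), near the shares of all genes. At annotated starts 9 of the 10 with an entry were bound in KARPAS-45 (beside 50.5%) and 7 of 10 in PER-117 (beside 34.4%). KDM3B, an H3K9 demethylase, had 24.3 in KARPAS-45, in the top 4.52%, and 5.87 in PER-117. Its paralogue KDM3A had 16.2 and 10.4 at a start inside the gene span. KDM2A, an H3K36 demethylase that binds unmethylated CpG DNA, had 5.35 and 6.28 at a start inside the span. Its relative KDM2B had 13.9 at such a start in KARPAS-45 and no start peak in PER-117.

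In the KDM4 family, KDM4A, KDM4B and KDM4C remove methyl groups from H3K9 and H3K36. KDM4A had 6.76 and 5.12 at its start, and KDM4B 6.92 and 5.52. KDM4C had 6.54 in KARPAS-45 cells and 8.8 in PER-117 cells. The 3 smaller members of the family lie near each other on chromosome 11 and carried little. KDM4D had a weak peak, 3.16 and 4.72, at an end shared with CWC15. KDM4E had a peak of 5.6 in KARPAS-45, none in PER-117 and no H3K27ac in its span plus 10 kb in either line. KDM4F had neither RUNX2 nor H3K27ac in that window in either line. KDM8, a Jumonji protein linked to H3K36, had 5.37 near its start in KARPAS-45 and no gene-end peak in PER-117.

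KARPAS-45 had gene-end RUNX2 at all 3 H3K27 demethylases (beside 48.3% of all genes). KDM6B alone of the 3 was bound in PER-117, near the share of all genes (32.5%). KDM6A (UTX), an X-linked eraser of H3K27me3, had 6.97 at its start in KARPAS-45 and no peak within its 240 kb span plus 10 kb in PER-117. KDM6B (JMJD3), the inducible enzyme of the same kind, had 5.16 and 3.3 within 1 kb of a gene end. Stronger peaks followed inside KDM6B, up to 15.3 and 9.58. KDM7A, which removes H3K9 and H3K27 methylation, had 6.33 upstream of its start in KARPAS-45 and no gene-end peak in PER-117. A peak shared by both lines lay just inside KDM7A (chromosome 7, 140175344 to 140175942 in KARPAS-45), 1442 bp from the start, at 20.1 and 9.54, with no H3K27ac in either line.

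The call differed between the lines at 9 enzymes. RUNX2 was called in KARPAS-45 and not in PER-117 at 8 enzymes (20.0%), beside 19.2% of all genes: KDM1B, KDM4E, KDM6A, KDM7A, KDM8, KMT2C, KMT5B and NSD1. The reverse held at SETD6 (2.5%, beside 3.35%). Both shares were near the background, and the KARPAS-45 list is the longer one. At 7 of the 8, all but KDM4E, the gene end was acetylated in both lines. At annotated starts the first group had 10 members (27%, beside 19.5%), all with an acetylated start in both lines: KDM1B, KDM2B, KDM6A, KDM7A, KDM8, KMT2C, KMT5B, NSD1, SETD2 and SETD4. The 8 enzymes with gene-end RUNX2 in neither line (20.0%, beside 48.3%) were EZH1, KDM2A, KDM2B, KDM3A, KDM4C, KDM4F, SETD3 and SETD9, and EZH1, KDM4F and SETD9 also lacked it at a start (3 of 37, beside 46.0%).

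Across the span plus 10 kb on each side, RUNX2 was called for 38 of 40 enzymes in KARPAS-45 (beside 72.2%) and for 34 in PER-117 (beside 54.9%). Without the 10 kb margin, 24 enzymes kept a PER-117 peak and 36 a KARPAS-45 peak. That setting was not counted over all genes. Some peaks in the margin lay within 1 kb of an end of a neighbour, such as NSMCE1 beside KDM8. The enzymes' genes are long, with a median span of 63.7 kb against 24.2 kb over all genes. Among genes 25.9 to 110 kb long, all 20 such enzymes had a peak in KARPAS-45 (beside 81.3%) and 19 in PER-117 (beside 61.9%). KDM4F and SETD9 had none in either line (beside 24.7% of all genes), and KDM4E, KDM6A, KMT2C and KMT5B had none in PER-117. The median number of peaks was 3.5 per enzyme in KARPAS-45 and 2 in PER-117, against 1 over all genes in each. Over all genes 25.9 to 110 kb long the medians were 2 and 1. Per 100 kb of window, enzymes held 3.82 peaks (KARPAS-45) and 2.0 (PER-117), against 2.57 and 1.36 over all genes. Over all genes 25.9 to 110 kb long these were 3.17 and 1.68.

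SETD1B and KDM4B held the most peaks in KARPAS-45, 14 each, followed by KDM2B and KDM4C with 11 and KDM6B with 10. In PER-117 KDM4B held 7, KDM6B 6, and KDM4C, KDM8 and SETD1B 5 each. KDM6B, at 20.6 kb, and SETD1B, at 42.5 kb, stood beside far longer genes, since KDM4B spans 184 kb and KDM4C 455 kb. All 6 PER-117 peaks of KDM6B overlapped a KARPAS-45 peak. KDM8, KDM5A and SETD5 were the 3 enzymes with more peaks in PER-117 than in KARPAS-45, or 7.5%, beside 10.2% of all genes. More were held in KARPAS-45 by 26 (65.0%, beside 49.6%), and 11 had equal numbers (27.5%, beside 40.2%).

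**Figure D3:**
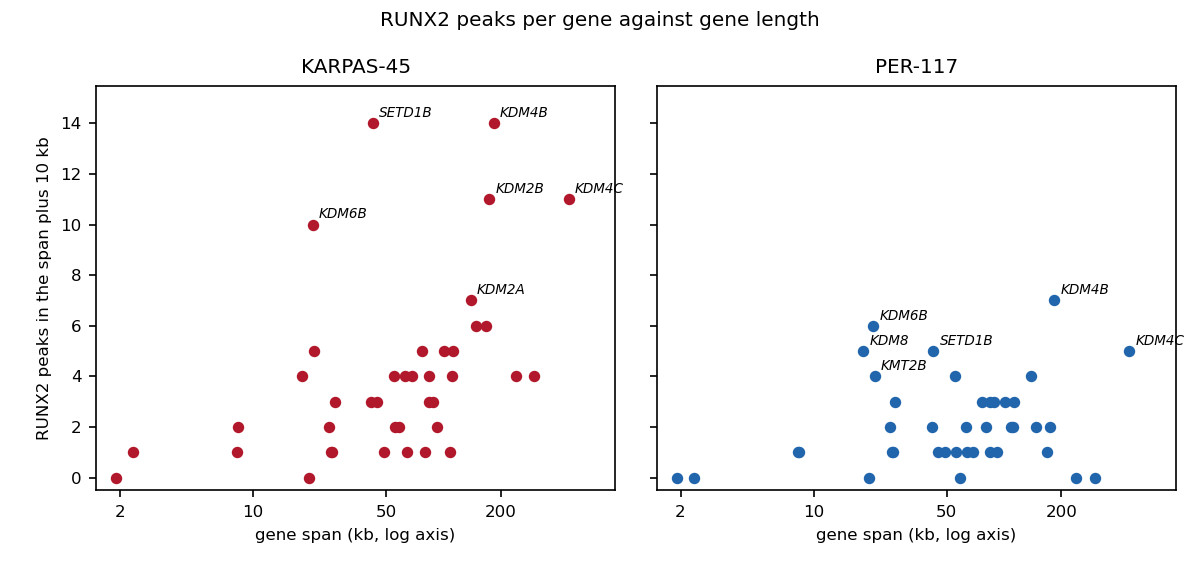
Number of RUNX2 peaks in the span plus 10 kb (vertical) against gene span in kb (horizontal log axis), 1 point per enzyme, in KARPAS-45 (left) and PER-117 (right). SETD1B and KDM6B have more peaks than the other enzymes of similar length in KARPAS-45, with 14 and 10 peaks, and KDM4B and KDM4C are the long genes with 14 and 11.

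Peaks near these genes were mostly acetylated. The 164 KARPAS-45 peaks in the enzymes' windows overlapped a PER-117 peak in 39.0% of cases (Wilson 95% interval 31.9 to 46.7), beside 33.4% for peaks in all gene windows, and 86.0% had their summit in H3K27ac of KARPAS-45 (79.8 to 90.5), beside 70.8%. Of the 86 PER-117 peaks, 74.4% overlapped a KARPAS-45 peak (64.3 to 82.5), beside 66.3%, and 84.9% were in H3K27ac of PER-117 (75.8 to 90.9), beside 78.4%. The value for all genes lay inside the interval for both overlap shares and for the acetylated share in PER-117. The intervals cover counting error alone, and peaks of 1 gene are not independent. With 1 library per line and antibody, they are no test of the enzymes against all genes.

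In KARPAS-45 the 3 strongest RUNX2 peaks of the enzymes lay deep inside long genes. In PER-117 the strongest was the KMT2E peak upstream of its start, at 27.2. In KDM4B a shared peak 170273 bp from the start (chromosome 19, 5138991 to 5139810 in KARPAS-45) reached 54.1 in KARPAS-45, the top 0.233% of the list, and 25.7 in PER-117, the top 1.27%. In KDM4C a shared peak 253966 bp from the start (chromosome 9, 7011590 to 7012223) reached 38.3, the top 1.15%, and 19.8, the top 3.31%. Both summits lay in H3K27ac in KARPAS-45 and outside it in PER-117. The SETD2 peak at 42.2 was called in KARPAS-45 and not in PER-117, outside H3K27ac. SETD7 also held a strong internal peak in KARPAS-45, at 20.5 and 27358 bp from the start, with none over it in PER-117.

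**Figure D4:**
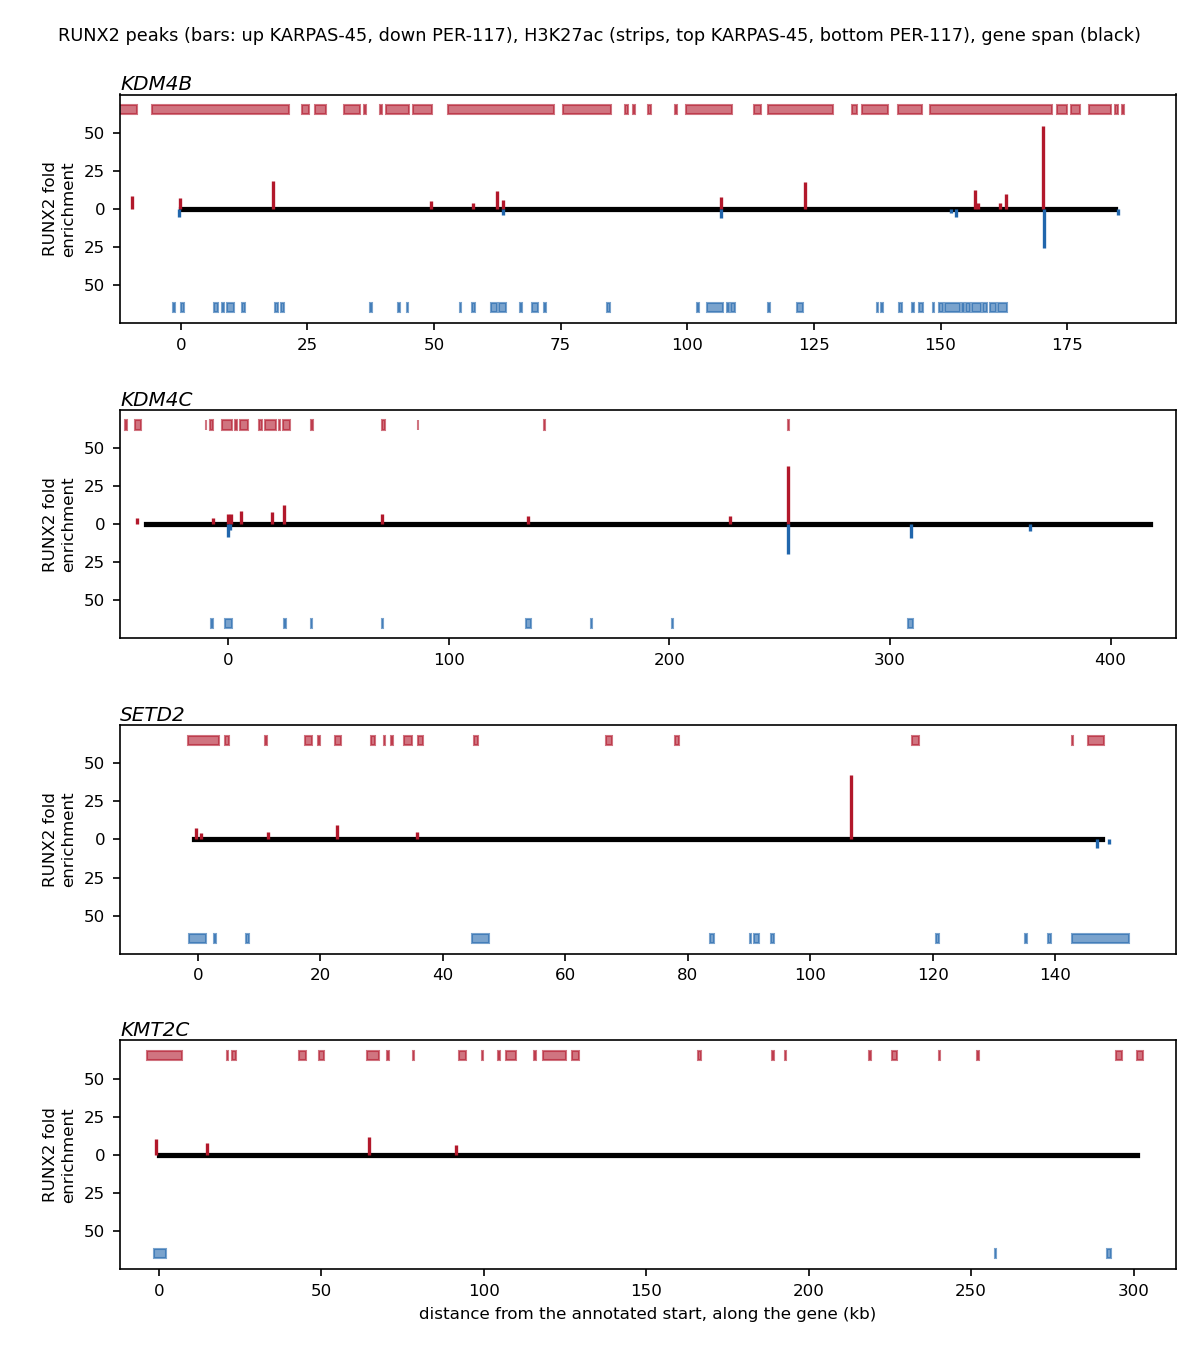
RUNX2 peaks and H3K27ac regions along KDM4B, KDM4C, SETD2 and KMT2C, by distance from the annotated start in kb (horizontal), where bar height is the authors' fold enrichment (KARPAS-45 up, PER-117 down), strips are H3K27ac (KARPAS-45 top, PER-117 bottom) and the black line is the gene span. The highest bars, 54.1 in KDM4B and 38.3 in KDM4C, have a PER-117 partner of 25.7 and 19.8, the 42.2 bar of SETD2 has none, and KMT2C has no PER-117 bar.

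H3K27ac covered more of these genes in KARPAS-45. It was called somewhere in the span plus 10 kb of the same 38 enzymes in each line (beside 74.0% and 69.4% of all genes, and 65.0% in both), all but KDM4E and KDM4F. Of the 4.3 Mb of these windows, 24.4% was inside H3K27ac in KARPAS-45, against 7.19% in PER-117, a ratio of 3.4. Over all gene windows the shares were 9.46% and 4.16%, a ratio of 2.27, so the enzymes' windows were covered more than average in both lines. The KARPAS-45 list covers more of the genome and reaches down to a fold enrichment of 1.0, against 1.63 in PER-117. Keeping its widest regions up to the length of the PER-117 list left 17 enzymes with an acetylated gene end in KARPAS-45, beside 16.0% of all genes.

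Cover was larger in KARPAS-45 for 32 of 40 enzymes, beside 61.4% of all genes. It was larger in PER-117 for 6, beside 17.0%, which were KDM3A, KDM7A, KDM8, SETD2, SETD3 and SETD9. NSD2 had the largest covered share in KARPAS-45, 71.8% of its window, against 4.86% in PER-117. KDM4B had 70.1% against 15.4%. KMT2E had 58.6% against 9.85%, and KDM2A 51.4% against 7.45%. SETD1B was widely covered in both lines, at 62.4% and 40.8%. By length KDM4B led in KARPAS-45, with 143 kb covered, then NSD2 with 93.9 kb, KDM2A with 81.6 kb, KDM2B with 77.4 kb and NSD1 with 74.9 kb. In PER-117 the order was KDM4B with 31.5 kb, SETD1B with 25.5 kb, KDM8 with 19.5 kb, KDM2B with 19.0 kb and SETD2 with 18.8 kb. KDM8 was covered more in PER-117, 51.1% of its window against 33.3%, and it also had 5 RUNX2 peaks there against 4. Part of that PER-117 cover was a 16.6 kb region that began past the far end of the gene and ran out of the window. Most of the 5 peaks lay outside the gene, including a peak near an end of NSMCE1. KDM7A had the least cover of the acetylated enzymes in KARPAS-45, 0.805%, against 2.9% in PER-117.

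**Figure D5:**
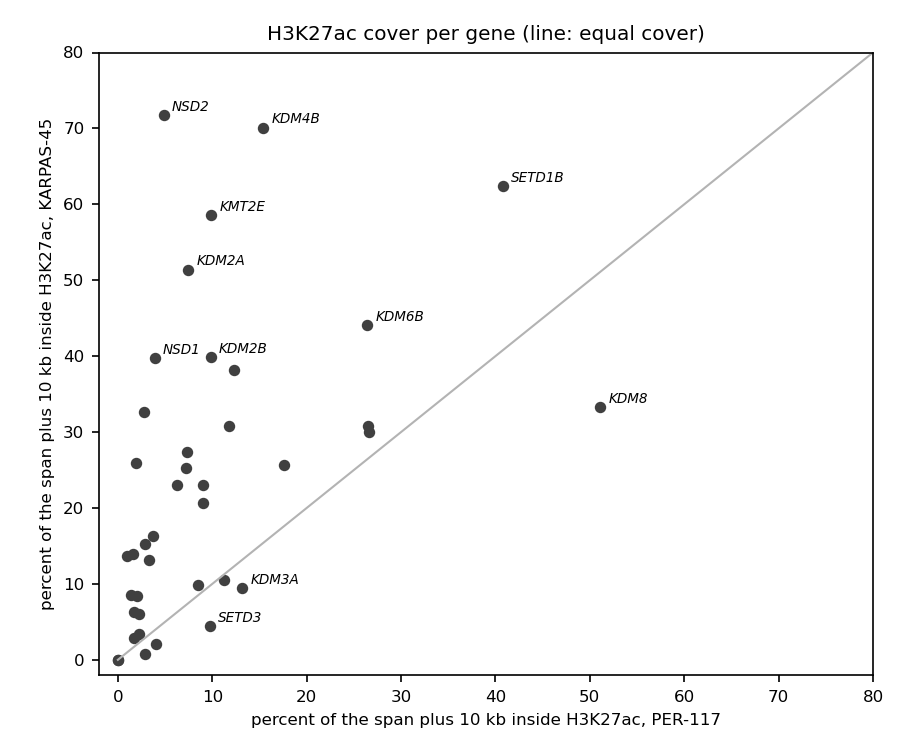
Percent of each enzyme's span plus 10 kb inside H3K27ac, PER-117 (horizontal) against KARPAS-45 (vertical), 1 point per enzyme with the line of equal cover. NSD2 (71.8% against 4.86%) and KDM4B (70.1% against 15.4%) lie far above the line, and KDM8 (33.3% against 51.1%) lies below it.

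By the authors' fold enrichment, the H3K27ac regions at the ends of these genes ranked above those of the median acetylated gene. The strongest region per acetylated enzyme had a median rank in the top 6.11% of the PER-117 list, beside 11.7% over all acetylated genes, and in the top 38.8% of the KARPAS-45 list, beside 42.5%. KMT5B had the highest PER-117 value, 19.3, and NSD2 had 16.7 there, while in KARPAS-45 SETD4 had 15.2 and KDM4A 8.02. Each is the strongest region at either end, so it need not lie at the start. The KDM4A value was at its far end, and its start region had 3.28 in KARPAS-45.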

How the data were processed

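Peak lists of RUNX2 and H3K27ac ChIP-seq, 1 library per line and antibody, were taken as deposited. The 3 input libraries were not analysed here. Tools and build named in the submitters' processing notes are STAR 2.4.2a, MACS2 and hg38, with thresholds and inputs not given in the sources used here and the read depth unknown. For each peak the authors deposited a display score, a fold enrichment (linear ratio) and −log10 values of p and q, and a summit offset for RUNX2. The H3K27ac lists hold 100 in that last column and have no usable summit. RUNX2 lines sharing an interval were joined under the summit of highest fold enrichment, and lines outside chromosomes 1 to 22 and X were left out (46275 lines to 42911 intervals, 23043 to 21027).

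Windows were 1 kb around either gene end or an annotated start, and the span plus 10 kb, from RefSeq tables of GRCh38.p14, with an overlap of 1 bp or more. Counts stand beside the same count over all protein-coding genes, and no test was made. The overlap code was tested on simulated windows. Genes given in full were the strongest at gene ends, those bound in 1 line, those with most peaks or H3K27ac, and those without. Alternatives were other thresholds, windows, list lengths and overlap rules. The result of 1 marker list is not reported here. The members and lists were chosen with earlier results of these data known. Software was Python 3.11.15 with scipy 1.17.1, pandas 2.3.3, numpy 2.4.6 and matplotlib 3.10.9.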

Additional observations from a re-analysis of the deposited data

How the results depend on the processing

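No read depth is known and no library has a replicate, so a peak that was not called is not shown to be absent. The counts of enzymes followed the threshold. With a −log10 q of 10 or more, gene-end RUNX2 was at 20 enzymes in KARPAS-45, 10 in PER-117, 8 in both lines and 2 in PER-117 alone, and 21 had a peak in the span plus 10 kb in PER-117. When each list was held to its 5000 strongest peaks these were 5, 5, 3 and 2, with 2 in KARPAS-45 alone, beside 6.0% and 7.13% of all genes at gene ends in KARPAS-45 and PER-117, and 13 and 15 had a peak in the span plus 10 kb. With KARPAS-45 H3K27ac kept, widest regions first, to the length PER-117 covers, 17 enzymes had it at a gene end and 18 in the span plus 10 kb. Fewer peaks or regions enter each of these counts by construction. At these settings the counts in both lines, in 1 line alone and in the span plus 10 kb were not made over all genes. The other 34 counts were within 1.5 times the reported ones, among them 12 enzymes bound in KARPAS-45 alone at a −log10 q of 10 or more, where 8 were reported. Gene-end H3K27ac with a −log10 q of 2 or more, also among them, was at 27 enzymes in KARPAS-45 and 35 in PER-117, where 35 were reported in each. So was RUNX2 in the span without the 10 kb margin, at 24 enzymes in PER-117, where 34 were reported with it. No paired analysis was possible because each line and antibody has 1 library.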

Other observations

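The partners of these enzymes were counted from a list of 45 other genes of histone methylation, such as the Polycomb subunits EED and SUZ12, the COMPASS subunits WDR5 and ASH2L, and the H3K9 methyltransferases EHMT1 and SETDB1. RUNX2 was at a gene end of 39 of the 45 in KARPAS-45, beside 48.3% of all genes, and of 27 in PER-117, beside 32.5%. H3K27ac was at a gene end of 43 in KARPAS-45, beside 61.0%, and of 40 in PER-117, beside 55.5%.

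RUNX2 peaks away from the enzymes' own gene ends were called in H3K27ac of the same line for 82.5% of 120 peaks in KARPAS-45 (Wilson 95% interval 74.7 to 88.3), beside 61.1% for all gene windows, and for 80.8% of 52 in PER-117 (68.1 to 89.2), beside 69.7%.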
